A study of Mus musculus with 6 samples.

Results

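Blnk and 8 genes that act beside it in B cell receptor signalling were followed in mouse ovarian surface epithelial (MOSE) cells, the cells that cover the ovary. The members were Blnk, Syk, Btk, Plcg1, Plcg2, Lyn, Grb2, Vav2 and Ptprc, 9 of the 25006 genes in the count files, matched from Ensembl identifiers to mouse symbols. They were chosen with the difference between the 2 lines already known, Blnk because it was among the genes with the largest rise, so the values of all 9 in that contrast are given as a description and without a p-value. MOSE-PAX8, a stable line that overexpresses the transcription factor PAX8, was set against MOSE-NEO, the reference line, with 3 RNA sequencing libraries each. Both lines were grown under the selection agent G418 at 0.05 mg/mL. The labels name 1 cell line per group, and they do not give the vector, the promoter that drives PAX8, the number of clones or whether each library had a culture of its own. Spread and p-values therefore describe these libraries and may be technical.

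BLNK is an adaptor protein without enzyme activity. In B cells the receptor is phosphorylated by SRC-family kinases such as LYN, the kinase SYK binds the receptor and phosphorylates BLNK, and BLNK then gathers BTK, phospholipase C gamma, VAV and GRB2 at the membrane. Phospholipase C gamma makes inositol trisphosphate and diacylglycerol, which release calcium and activate protein kinase C and RAS exchange factors. CD45, the product of Ptprc, is a phosphatase of white blood cells that sets how active SRC-family kinases are. In B cells the transcription factor PAX5, of the same family as PAX8, is known to activate Blnk.

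Library totals ran from 30621528 to 36367825 counts in MOSE-PAX8 and from 23623762 to 32057173 in MOSE-NEO. Levels are CPM, counts scaled to the library total and by TMM factors, and levels of different genes are compared only per kb of annotated exon. Pax8 had 2570, 2973 and 3544 counts in the MOSE-PAX8 libraries and 0, 1 and 1 in the MOSE-NEO libraries. Markers of the ovarian surface were abundant, led by Upk3b (2655 ± 264 CPM in MOSE-PAX8 and 4316 ± 327 in MOSE-NEO, SD, n = 3) and Krt7 (1038 ± 147 CPM in MOSE-PAX8 and 1910 ± 122 in MOSE-NEO), but Cdh1, the cadherin of most epithelia, had 2 counts or fewer in every library. Of 10 tested surface markers 2 were higher in MOSE-PAX8, Cdh2 and Nr2f2, and 4 were lower, Upk3b, Krt7, Wt1 and Krt8 (edgeR), and their part in the results below was not tested. The MOSE-PAX8 library 2 and the MOSE-NEO library 1 held more lincRNA, 0.33% and 0.317% of counts, than the other 4 libraries, which held between 0.146% and 0.195%. Over all 12313 genes tested with edgeR, 33.9% were called at an adjusted p below 0.05 (17.9% higher and 16.1% lower in MOSE-PAX8), and the libraries of the lines did not overlap for 47.6%. The 1979 genes called lower became 1314 without MOSE-PAX8 replicate 3.

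Blnk was nearly silent in MOSE-NEO and abundant in MOSE-PAX8. It had 4083, 3861 and 5278 counts in MOSE-PAX8 libraries 1 to 3, against 1, 1 and 0 counts in the MOSE-NEO libraries. The level was 112, 121 and 163 CPM in MOSE-PAX8, against 0.0318, 0.0435 and 0 CPM in MOSE-NEO. The lowest MOSE-PAX8 library thus lay far above the highest MOSE-NEO library, and MOSE-PAX8 library 3 was the highest of its line. The pooled level was 5547 times higher in MOSE-PAX8, with a counting interval (exact, 95%) of 1535 to 45808 that reflects the 2 counts in MOSE-NEO. The fitted log2 fold change was 12.22 ± 0.33 (SE), the 4th highest among the genes tested, and it ran from 11.66 without MOSE-NEO replicate 3 to 12.67 without MOSE-NEO replicate 2. With both libraries rich in lincRNA dropped it was 12.54. In bulk RNA, few cells with much Blnk and all cells with less cannot be told apart. Per kb of exon Blnk reached 22 CPM in MOSE-PAX8, above 80.5% of the genes tested. Of 77 genes with at most 3 counts in MOSE-NEO and a mean of at least 1 CPM in MOSE-PAX8, only Blnk and Ankrd1 averaged 100 CPM or more. The reverse pattern, at most 3 counts in MOSE-PAX8 and at least 1 CPM in MOSE-NEO, was found for 8 genes, none of them a member.

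**Figure D1:**
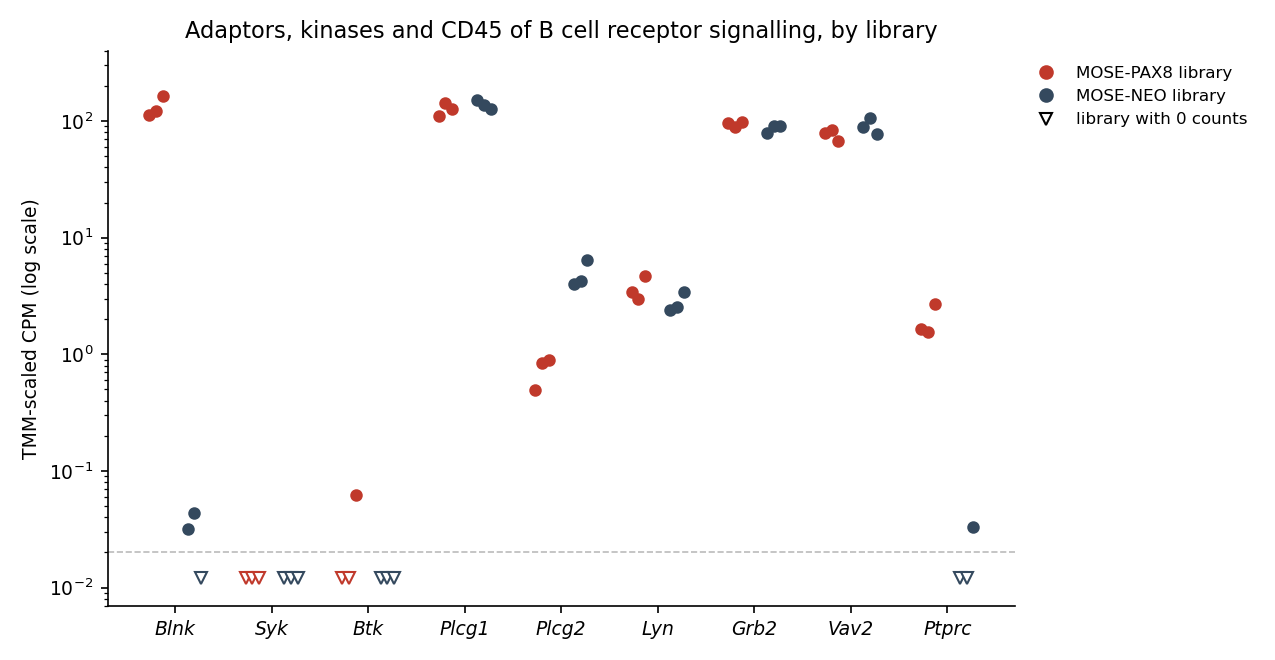
Level of each of the 9 genes in TMM-scaled CPM (log scale), 1 point per library, MOSE-PAX8 left and MOSE-NEO right of each tick. Open triangles under the dashed line are libraries with 0 counts. Blnk sits between 112 and 163 CPM in MOSE-PAX8 and at or under 0.0435 CPM in MOSE-NEO, Ptprc and Plcg2 also separate the lines, and Syk has no count in any library.

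The Blnk gene (mm10, chromosome 19, 40928927 to 40994535, minus strand) has a start site in RefSeq (GRCm38.p6) at 40994221, 250 bases of which upstream were searched. That whole window lies within the first exon of longer transcripts in GENCODE M21, so it is shown as 3 stretches of 30 bases around the motif matches it holds, 5′ to 3′ on the gene's strand with the matched letters in capitals, because B cell factors are known to use such letters. The motifs were picked after the sequence had been read.

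Blnk octamer, chr19:40994333-40994362: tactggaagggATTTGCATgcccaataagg

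Blnk E-box, chr19:40994364-40994393: aacctggcaacaCACCTGatcataaaagag

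Blnk ETS, chr19:40994405-40994434: ttgggacaaacAGGAAGTagtgctcagtca

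The octamer ATTTGCAT, bound by OCT factors, was present in 1.6% of 32851 RefSeq promoter windows of this length on either strand. The E-box CAGGTG, which the Blnk stretch holds on the other strand, was in 17.2% of them and the ETS letters AGGAAGT in 7.69%. The core letters of the PAX paired-domain motif, GCGTGAC, were not in the Blnk window on either strand and were in 1.78% of all windows. The palindromic EBF motif, present in 0.779%, was not in it either. The 3 matches do not overlap one another. A match or its absence describes letters in this window and not binding.

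The genes whose profile over the 6 libraries was nearest to that of Blnk, by Euclidean distance of log2(CPM + 0.5), were Ankrd1 (distance 0.936), Pax8 (0.962), Nrep (1.76), Sprr2g (1.95) and Glis3 (2.01). Gm-number, Rik and -ps symbols were passed over in this ranking. Ankrd1 encodes a stretch-responsive ankyrin repeat protein and Glis3 a zinc finger transcription factor. Pax8 itself had 70.3, 93.4 and 109 CPM in MOSE-PAX8 libraries 1 to 3, so library 3 was the highest for Pax8 as for Blnk. Library 3 was also the highest for Ankrd1, Sprr2g and Glis3, but library 2 was for Nrep (158, 239 and 229 CPM). All of these genes were picked by nearness to Blnk over the same libraries. A shared highest library is therefore partly fixed by that choice, and nothing is read from it. Nrep, the 3rd nearest profile, was not silent in MOSE-NEO, where it had 31 counts. Sprr2g, which GENCODE lists as a polymorphic pseudogene, has close paralogs, and its counts are uncertain for that reason.

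The other adaptors of the BLNK type were at or near 0. Clnk had 0 counts in all 6 libraries, and Lcp2, the adaptor that fills the role of BLNK in T cells, had 1 count in all, so nearly all of the family in MOSE-PAX8 was Blnk. Of the 2 tested LAT-type adaptors, Pag1, which anchors the inhibitory kinase CSK at the membrane, rose 1.46-fold to 55.5 ± 3.7 CPM in MOSE-PAX8, against 38 ± 4.46 CPM in MOSE-NEO (edgeR adjusted p = 0.00372). Lat2 had 1.31, 3.61 and 1.63 CPM in MOSE-PAX8 and 4.22, 2.96 and 1.56 CPM in MOSE-NEO, with overlapping lines (edgeR adjusted p = 0.522).

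Ighm and Igkc, immunoglobulin chain genes that were listed, were not found in the count files and so were not analysed. Of 9 receptor and co-receptor genes in the files, only Cd81, a tetraspanin of many cell types, had enough counts to be tested, at 345 ± 28.6 CPM in MOSE-PAX8 and 403 ± 43.2 in MOSE-NEO (SD, n = 3, edgeR adjusted p = 0.134). Cd79a, the signalling chain of the receptor, had 4, 2 and 2 counts in MOSE-PAX8 and 9, 2 and 4 in MOSE-NEO. Cd79b had 1 count over the 6 libraries. With the local chromosome median removed, an alternative chosen after seeing the data, Cd81 was called lower (edgeR adjusted p = 0.00758). Under the other alternatives it was not called, with adjusted p between 0.076 and 0.369.

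SYK and BTK, the 2 kinases that work with BLNK in B cells, were not detected or nearly so. Syk (chromosome 13, 52583173 to 52648792) had 0 counts in each of the 6 libraries, which allows a level of up to 0.082 to 0.0943 CPM in MOSE-PAX8 and 0.0953 to 0.13 CPM in MOSE-NEO (3 counts per library, counting error only). Btk (chromosome X, 134542336 to 134583570) had 0, 0 and 2 counts in MOSE-PAX8 and 0 in all MOSE-NEO libraries, so no fold is given. The same limit holds only for its libraries with 0 counts. Zap70, the relative of SYK in T cells, had 2 counts in MOSE-PAX8 and 1 in MOSE-NEO. These 2 members did not pass the filter on low counts, and the other 7 did.

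Tec carried nearly all transcripts of the TEC kinases, the family of BTK: its share per kb was 98 ± 0.417% in MOSE-PAX8 and 98.5 ± 0.221% in MOSE-NEO (SD, n = 3). Tec had 11.7, 8.95 and 10.4 CPM in MOSE-PAX8, against 19.5, 17.3 and 17.7 CPM in MOSE-NEO. The lines did not overlap, and Tec fell 1.75-fold (edgeR adjusted p = 0.00115). Bmx had a single count, and Txk did not pass the test (log2 fold change -0.51 ± 0.41 SE, edgeR adjusted p = 0.378).

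Lyn, the SRC-family kinase of B cells, was low in both lines. It had 3.39, 2.95 and 4.71 CPM in MOSE-PAX8 and 2.41, 2.52 and 3.42 CPM in MOSE-NEO, and the lines overlapped. The log2 fold change was 0.4 ± 0.24 (SE), between 0.19 and 0.58 with 1 library left out in turn. Lyn (chromosome 4, 3678115 to 3813122) shares 248 exon bases with a lincRNA on the other strand, and without a stated strand setting reads from that stretch cannot be assigned to one of them.

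Lck and Fyn rose, and Src and Yes1 fell. Lck, the SRC-family kinase of T cells, rose to 59, 40 and 48 counts in MOSE-PAX8, against 1, 0 and 2 counts in MOSE-NEO, a pooled ratio of 41.1 with a counting interval of 13.8 to 202 (edgeR adjusted p = 0.000127). Fyn, a kinase of lymphocytes, neurons and many other cells, had 8.72, 9.8 and 14.1 CPM in MOSE-PAX8, against 0.794, 0.435 and 1.33 CPM in MOSE-NEO. It rose 12.4-fold (log2 fold change 3.63 ± 0.34 SE, edgeR adjusted p = 0.000108), and its share of the family per kb was 7.91 ± 1.78% in MOSE-PAX8 and 0.541 ± 0.262% in MOSE-NEO. Src and Yes1, the most abundant family members, fell 1.28-fold and 1.23-fold (edgeR adjusted p = 0.00629 and 0.0375). Yes1 lost its call without MOSE-PAX8 replicate 2 or 3 (adjusted p = 0.101 and 0.129), without replicate 1 or 3 of MOSE-NEO (0.0739 and 0.114) and with the pair of lincRNA-rich libraries left out (0.14). Src was still the larger part, 61.9 ± 0.728% of the family in MOSE-PAX8 and 69.7 ± 1.37% in MOSE-NEO. Blk and Fgr, kinases of blood cells, had 2 counts or fewer in every library, and Csk, which inhibits the family, did not pass the test.

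Ptprc, the gene of CD45, appeared at a low level in MOSE-PAX8. It had 60, 49 and 87 counts in MOSE-PAX8, against 0, 0 and 1 counts in MOSE-NEO. The level was 1.64, 1.54 and 2.68 CPM in MOSE-PAX8. The pooled ratio was 164, with a counting interval of 29.2 to 6528, and the fitted log2 fold change was 6.95 ± 0.64 (SE), with 6.2 by limma-voom, 6.41 without MOSE-NEO replicate 1 and 6.55 with the libraries rich in lincRNA dropped. Without MOSE-NEO replicate 3 it was 8.92, but MOSE-NEO then had 0 counts, so that value depends on the prior count and is no bound. Per kb of exon Ptprc had 0.107 CPM in MOSE-PAX8, above only 2.52% of the genes tested, where Blnk had 22. The exon annotation of Ptprc is long (18313 bases), which lowers its level per kb. Blnk, Ptprc and Lck were the only genes of any list used here among the 77 that were near 0 in MOSE-NEO and present in MOSE-PAX8.

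Ptprc (chromosome 1, 138062861 to 138175708) and Plcg2 (chromosome 8, 117498291 to 117635142) moved in opposite directions, and the bases before their RefSeq starts that lie outside annotated exons are shown for comparison, 5′ to 3′ on the gene's strand with motif matches in capitals.

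Ptprc, chr1:138175307-138175555: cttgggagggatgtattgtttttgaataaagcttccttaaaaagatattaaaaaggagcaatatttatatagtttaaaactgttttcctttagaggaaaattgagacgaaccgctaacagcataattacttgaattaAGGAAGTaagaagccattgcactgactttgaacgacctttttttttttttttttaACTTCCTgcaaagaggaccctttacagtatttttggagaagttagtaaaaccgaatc

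Plcg2, chr8:117498025-117498274: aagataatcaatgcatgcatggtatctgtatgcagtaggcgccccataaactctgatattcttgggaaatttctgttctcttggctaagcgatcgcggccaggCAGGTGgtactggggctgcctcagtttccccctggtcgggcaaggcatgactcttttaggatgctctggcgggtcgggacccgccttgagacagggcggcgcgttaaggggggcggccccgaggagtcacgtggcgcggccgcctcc

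The Ptprc stretch holds the ETS letters once on each strand, and the Plcg2 stretch holds 1 E-box. The PAX core, the octamer and the EBF motif were in neither. The 250 bases before the start had a GC content of 31.6% and 4 CpG for Ptprc and 59.6% and 17 CpG for Plcg2. For Blnk they had 47.6% and 6 CpG, beside medians of 52.4% and 6 CpG over all windows. All 250 Blnk bases lie within annotated exons, against 1 base for Ptprc and 0 for Plcg2. The bases before the longer Blnk transcripts were not searched. RefSeq windows were found for 8 of the 9 members, all but Lyn, and the PAX core occurred in 1 of them, a second window of Syk, which had no counts.

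Phospholipase C gamma is encoded by 2 genes that behaved differently. Plcg2, the form of blood cells, had 18, 27 and 29 counts in MOSE-PAX8, against 127, 98 and 193 counts in MOSE-NEO. The level was 0.492, 0.848 and 0.894 CPM in MOSE-PAX8 and 4.03, 4.26 and 6.41 CPM in MOSE-NEO, so the lines did not overlap. It was 6.6-fold lower in MOSE-PAX8, with a log2 fold change of -2.72 ± 0.3 (SE) that stayed between -2.88 and -2.48 with 1 library left out in turn.

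Plcg1, the form of most tissues, had 111, 143 and 127 CPM in MOSE-PAX8 and 152, 136 and 127 CPM in MOSE-NEO. The lines overlapped, with a log2 fold change of -0.12 ± 0.11 (SE). Plcg1 made up 99 ± 0.23% of the 2 genes per kb in MOSE-PAX8 and 93.8 ± 2.02% in MOSE-NEO (SD, n = 3). Plcg1 (chromosome 2, 160731300 to 160775760) shares 379 exon bases with Zhx3 and 248 with an antisense transcript, both on the other strand.

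Grb2, an adaptor that links receptors to RAS activation in all tissues, had 95.8, 88.7 and 98.8 CPM in MOSE-PAX8 and 78.6, 90.5 and 91.4 CPM in MOSE-NEO. Its log2 fold change was 0.12 ± 0.09 (SE), and the lines overlapped. It was the most abundant member per kb in both lines, at 32.4 CPM in MOSE-PAX8 and 29.8 CPM in MOSE-NEO. The blood cell forms Grap and Grap2 had at most 1 count per library.

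Vav2, an exchange factor of RAC GTPases, had 78.8, 83.8 and 67.4 CPM in MOSE-PAX8 and 88.2, 106 and 77.4 CPM in MOSE-NEO. The lines overlapped, with a log2 fold change of -0.24 ± 0.13 (SE). Vav1, the form of blood cells, had 0 counts in all libraries. Vav2 made up 84.9 ± 3.71% of the VAV transcripts per kb in MOSE-PAX8 and 84.9 ± 2.79% in MOSE-NEO, and Vav3 made up the rest.

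Within MOSE-PAX8 the order per kb was Grb2 (32.4 CPM), Blnk (22), Plcg1 (16.2), Vav2 (11.1), Lyn (0.905), Plcg2 (0.173) and Ptprc (0.107). Btk followed with 2 counts over the line, and Syk had 0. The library ranges of Blnk (18.6 to 27.1) and Plcg1 (14.1 to 18.2) did not overlap, nor did those of Plcg1 and Vav2 (9.74 to 12.1), whereas those of Plcg2 (0.114 to 0.208) and Ptprc (0.0841 to 0.146) did. In MOSE-NEO the order was Grb2 (29.8), Plcg1 (17.6), Vav2 (13.1), Plcg2 (1.14) and Lyn (0.684), with the other 4 near or at 0. The fit over all genes covered 7 members, of which 2 were called higher, 1 lower and 4 not, beside 33.9% called over all genes. The same 3 were the ones whose lines did not overlap, beside 47.6% over all genes. The members were chosen on this contrast, so nothing is read from these counts.

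**Figure D2:**
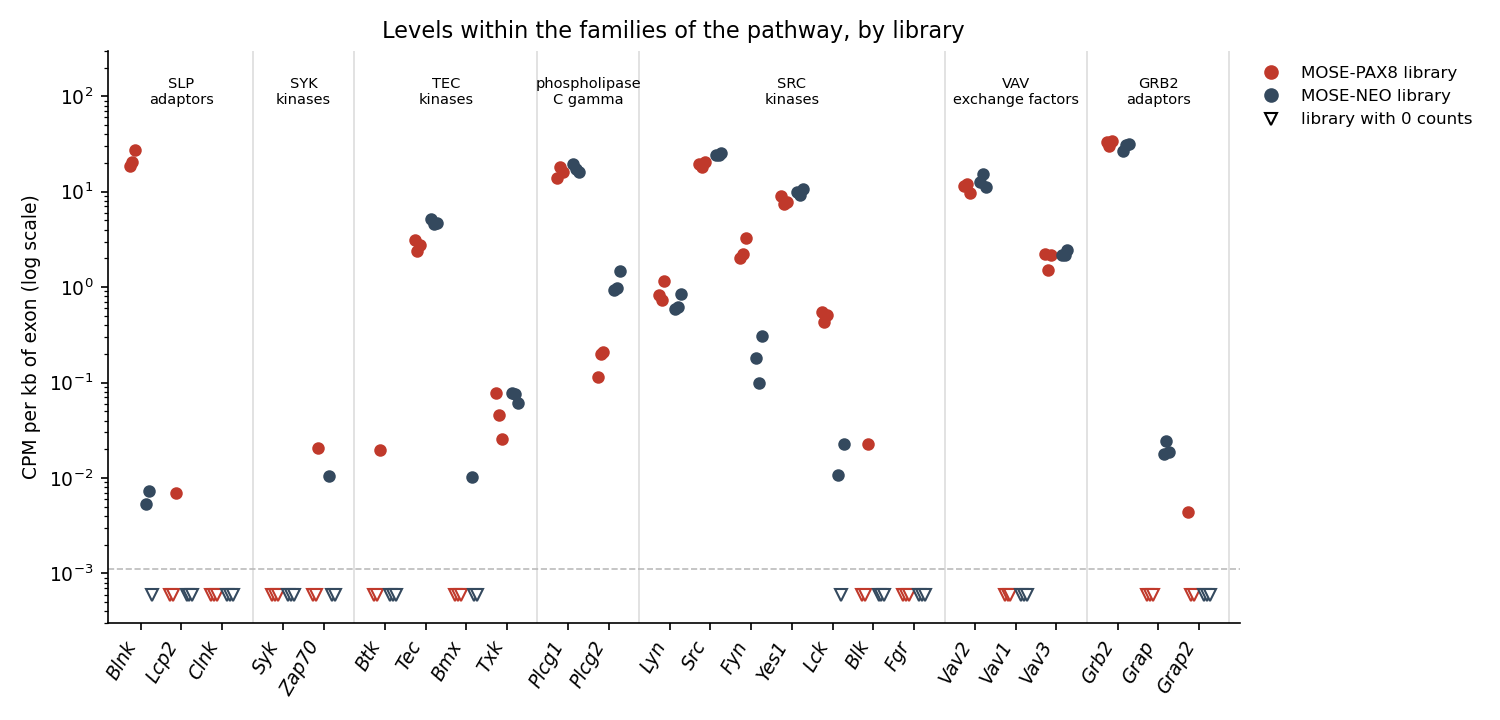
CPM per kb of exon (log scale) for genes of 7 families, 1 point per library, MOSE-PAX8 left and MOSE-NEO right of each tick, with open triangles for libraries with 0 counts. Blnk is the only SLP-type adaptor above 1 CPM per kb, in MOSE-PAX8, and Tec, Src, Yes1, Plcg1, Vav2 and Grb2 are the abundant genes of their families in both lines, while Syk and Zap70 are at or near 0.

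The wider pathway was described with 10 lists of genes other than the members. Of 117 listed genes 116 were in the files and 87 were tested. Of those 14 rose and 12 fell, 29.9% in all beside 33.9% over all genes, and the median log2 fold change was 0.03 beside 0.01 over all genes tested. The genes with large changes were few. Besides Lck and Fyn, the calcium and RAS branches held 1 such gene each.

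Itpr2, an inositol trisphosphate receptor that releases calcium from the endoplasmic reticulum, had 4.62, 6 and 5.89 CPM in MOSE-PAX8, against 0.127, 0.13 and 0.133 CPM in MOSE-NEO. It rose 41.1-fold (log2 fold change 5.36 ± 0.27 SE, edgeR adjusted p = 4.32e-06), with no overlap between lines. Itpr1 and Itpr3, the other receptors of this family, did not pass the test. Of the 15 tested genes of the calcium and protein kinase C list, 2 were called higher and 3 lower, 33.3% in all beside 33.9% over all genes. Ppp3ca rose 1.2-fold and Prkcd, a protein kinase C activated by diacylglycerol, fell 1.96-fold (edgeR adjusted p = 0.0215 and 9.12e-05). Ppp3cb and Stim2 fell 1.29-fold and 1.24-fold (0.00656 and 0.00718). Ppp3ca and Ppp3cb, subunits of the phosphatase calcineurin, lie in parts of chromosomes 3 and 14 where the median of the tested genes within 5 Mb was 0.43 and -0.52 on the log2 scale. With that median removed both changed sign and lost their calls, at 0.15 for Ppp3cb and -0.16 for Ppp3ca (edgeR adjusted p = 0.188 and 0.142). Ppp3ca also lost its call without MOSE-PAX8 replicate 1 or 3 (0.0797 and 0.099) and without replicate 1 or 3 of MOSE-NEO (0.0515 and 0.0527). Prkcd, also on chromosome 14, kept its call with the median of -0.45 around it removed. Its log2 fold change then shrank from -0.97 to -0.52.

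Rasgrp3, a RAS exchange factor that diacylglycerol recruits in B cells and endothelium, had 4.26, 3.83 and 5.98 CPM in MOSE-PAX8, against 0.0953, 0.13 and 0.199 CPM in MOSE-NEO. It rose 32.2-fold (log2 fold change 5.01 ± 0.34 SE, edgeR adjusted p = 2.11e-05), and the lines did not overlap. Rasgrp1 had 1 count over all libraries. Of the 15 tested genes of the RAS, RAC and MAP kinase branch, 2 were called higher and 2 lower, 26.7% in all beside 33.9% over all genes. Map2k2 also rose (1.48-fold, edgeR adjusted p = 0.00136), and Nras and Mapk8 fell 1.59-fold and 1.3-fold (0.00015 and 0.00689). Nras kept its call under all 15 alternatives, with log2 fold changes from -0.68 to -0.24. Mapk8 lies on chromosome 14 where the local median was -0.52, and it turned to 0.14 with that median removed (edgeR adjusted p = 0.234).

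GRB2-type and other adaptors were called in both directions. Sh3kbp1, an adaptor of receptor endocytosis that binds BLNK in B cells, had 4.57, 4.93 and 7.58 CPM in MOSE-PAX8 and 1.62, 2.22 and 1.43 CPM in MOSE-NEO. It rose 3.26-fold (edgeR adjusted p = 0.00145). Of the 14 tested adaptors of this list, 1 was called higher and 3 lower, 28.6% in all beside 33.9% over all genes. Shc1 fell 1.51-fold, Dapp1 1.34-fold and Gab1 1.22-fold (edgeR adjusted p = 0.000644, 0.0157 and 0.0142). Shc1 lost its call with the local median of -0.54 removed (adjusted p = 0.653), and Dapp1 and Gab1 lost theirs without MOSE-PAX8 replicate 3 (0.0691 and 0.0786). That library alone took the count of adaptors that fell to 1. Dapp1 also lost its call when the 2 lincRNA-rich libraries were dropped (0.0746). With the local median of 0.43 removed Dapp1 kept its call, and its log2 fold change became -0.85, as the removal implies.

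In the inhibitory and downstream lists 1 of 12 phosphatases and inhibitors was called, 3 of 9 phosphoinositide 3-kinase and AKT genes, and 3 of 11 of the NF-kB branch, beside 33.9% over all genes. Of the phosphatases and inhibitors, Ptpn6, the phosphatase SHP-1 of blood cells and epithelia, rose 2.12-fold to 1.08 ± 0.0637 CPM in MOSE-PAX8, against 0.508 ± 0.0711 CPM in MOSE-NEO (edgeR adjusted p = 0.014). It lost its call without replicate 3 of MOSE-PAX8 (0.0597) or of MOSE-NEO (0.0549) and with DESeq2 (0.0588). In the phosphoinositide 3-kinase and AKT list, Akt1 rose 1.32-fold and Pik3cd, the catalytic subunit of leukocytes, fell 1.96-fold (edgeR adjusted p = 0.00219 and 0.00709). Pik3r1 rose 1.19-fold (0.0469), a call that ended without any 1 of 5 libraries, all but MOSE-NEO replicate 1, with adjusted p between 0.071 and 0.14. It also ended with no filter on low counts (0.0577) and with the local median removed (0.067). In the CARD, BCL10, MALT1 and NF-kB branch, Card10, a scaffold protein of epithelial cells, rose 2.91-fold, and Nfkb1 and Nfkb2 rose 1.39-fold and 1.34-fold (edgeR adjusted p = 0.00554, 0.00165 and 0.0031). Nfkb1 lost its call with the local median of 0.45 on chromosome 3 removed (adjusted p = 0.846).

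**Figure D3:**
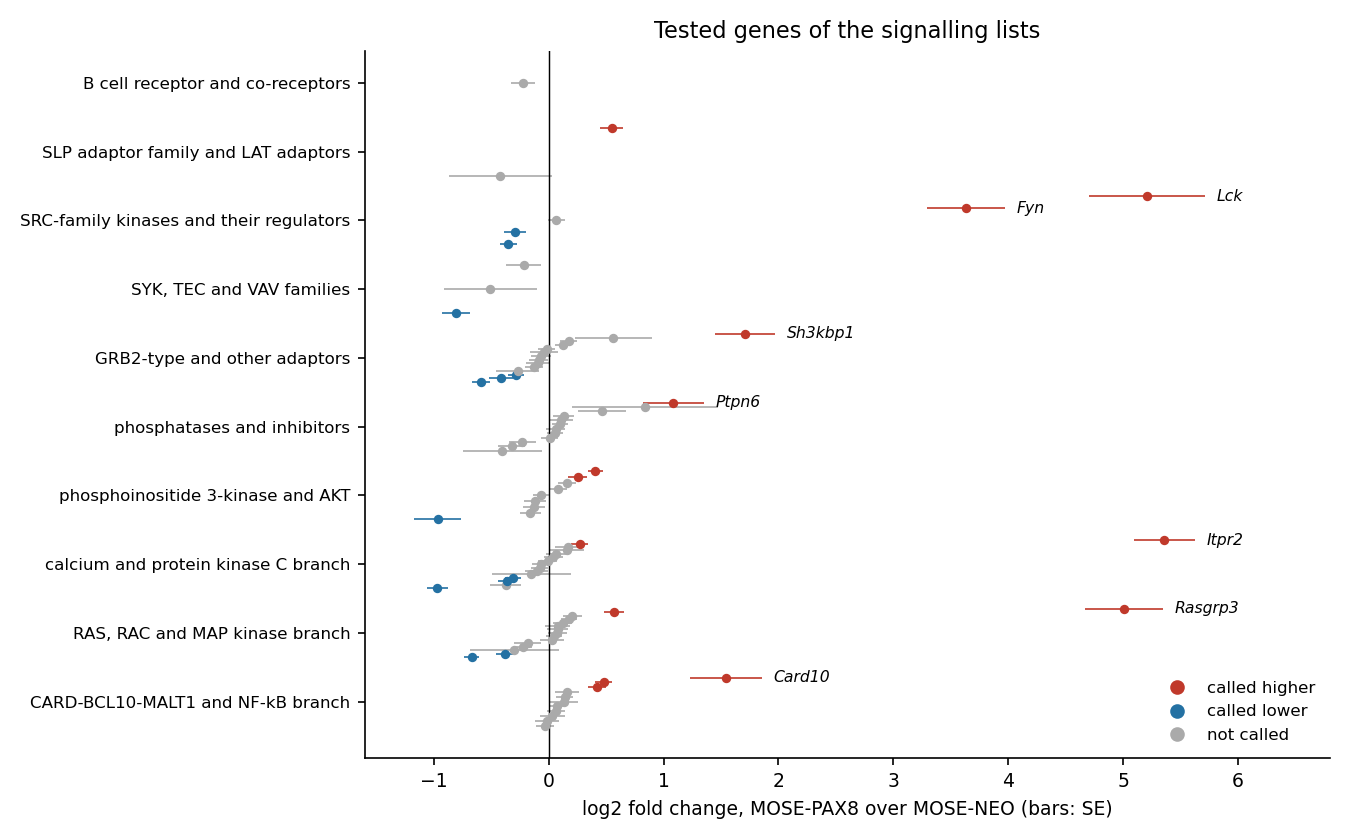
Log2 fold change, MOSE-PAX8 over MOSE-NEO, of the 87 tested genes of the 10 signalling lists (bars are SE), coloured by call. Lck, Fyn, Itpr2 and Rasgrp3 lie above 3, and the other genes lie between -1 and 2.

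Of 14 listed targets of PAX5 in B cells, 5 were tested, of which 1 rose and 3 fell, beside 17.9% higher and 16.1% lower over all genes. The number called was 1 without MOSE-PAX8 replicate 3 and 2 without MOSE-NEO replicate 2. Bst1, a surface enzyme that uses NAD, rose 2.66-fold to 1.88 ± 0.337 CPM in MOSE-PAX8, against 0.717 ± 0.303 CPM in MOSE-NEO (edgeR adjusted p = 0.0114, or 0.0591 when the 2 lincRNA-rich libraries were dropped). Lef1, Nedd9 and Id3 fell 1.71-fold, 1.29-fold and 1.28-fold (edgeR adjusted p = 0.0247, 0.0127 and 0.0253). All 3 lost their calls without MOSE-PAX8 replicate 3 (0.0973, 0.0638 and 0.0951), and Lef1 and Id3 also without MOSE-NEO replicate 2 (0.0865 and 0.0897). Lef1 lost its call without MOSE-PAX8 replicate 2 too (0.0541), as did Id3 without MOSE-PAX8 replicate 1 or MOSE-NEO replicate 3 (0.0678 and 0.0723). Pax5 itself had 1 count in each MOSE-PAX8 library and 1, 2 and 1 counts in MOSE-NEO. Pax2, a close relative of Pax8, had 3, 2 and 1 counts in MOSE-PAX8 and 0 in all MOSE-NEO libraries.

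Most defining markers of blood cells had few or no counts. Of 13 B cell markers in the files, 5 had no count in any library, among them Ms4a1, Rag1, Rag2 and Pou2af1, and 11 had 3 counts or fewer in every library. Their summed level was 0.431 to 0.656 CPM in MOSE-PAX8 and 0.608 to 1.02 CPM in MOSE-NEO, with Vpreb1, which did not pass the test, the most abundant. Of 20 markers of other leukocytes, 8 had no count, among them Spi1, Cd3d, Cd4, Adgre1, Tyrobp and Laptm5, and 15 had 3 counts or fewer in every library. Their summed level was 8.26 to 8.72 CPM in MOSE-PAX8 and 9.43 to 17.3 CPM in MOSE-NEO. Csf1r, the receptor of a macrophage growth factor, and Cd68 made up most of it, and Csf1r fell 2.52-fold to 4.2 ± 0.913 CPM in MOSE-PAX8, against 10.5 ± 3.19 CPM in MOSE-NEO (SD, n = 3, edgeR adjusted p = 0.00373).

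Genes beside Blnk on chromosome 19 changed far less than Blnk. Within 1 Mb there were 30 other genes in the files and 21 were tested, of which 10 rose and 1 fell, beside 17.9% higher and 16.1% lower over all genes, with log2 fold changes from -0.39 to 2.41 and a median of 0.29. The nearest tested neighbour, Zfp518a at 11 kb, had a log2 fold change of 0.27 ± 0.09 (SE, edgeR adjusted p = 0.0428), a call that ended without any 1 library in turn (up to 0.125). Cc2d2b at 101 kb, Slit1 at 606 kb and Rrp12 at 868 kb kept their calls under all alternatives that tested them. Cc2d2b had 0.984, 1.45 and 1.2 CPM in MOSE-PAX8 and 0.222, 0.217 and 0.232 CPM in MOSE-NEO, and rose 5.3-fold (edgeR adjusted p = 0.000664). Slit1, a secreted guidance protein, rose 3.49-fold and Rrp12, a ribosome assembly factor, 1.61-fold (0.00458 and 0.00608). Ubtd1 fell 1.31-fold (0.0112). Pik3ap1, another B cell adaptor and a neighbour at 278 kb, had 0.888 CPM in MOSE-PAX8 and 0.612 CPM in MOSE-NEO and did not pass the test (adjusted p = 0.239).

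The count of neighbours that rose depended on single libraries. It was 3 without MOSE-PAX8 replicate 3, 5 without MOSE-NEO replicate 2 or 3, and between 7 and 8 without each of the other 3. It was 4 with the local chromosome median removed, and also 4 when the lincRNA-rich pair was dropped. The 85 tested genes within 5 Mb of Blnk had a median log2 fold change of 0.17. For Blnk that median was only subtracted from the fitted log2 fold change, without a refit, which gives 12.04 by arithmetic.

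**Figure D4:**
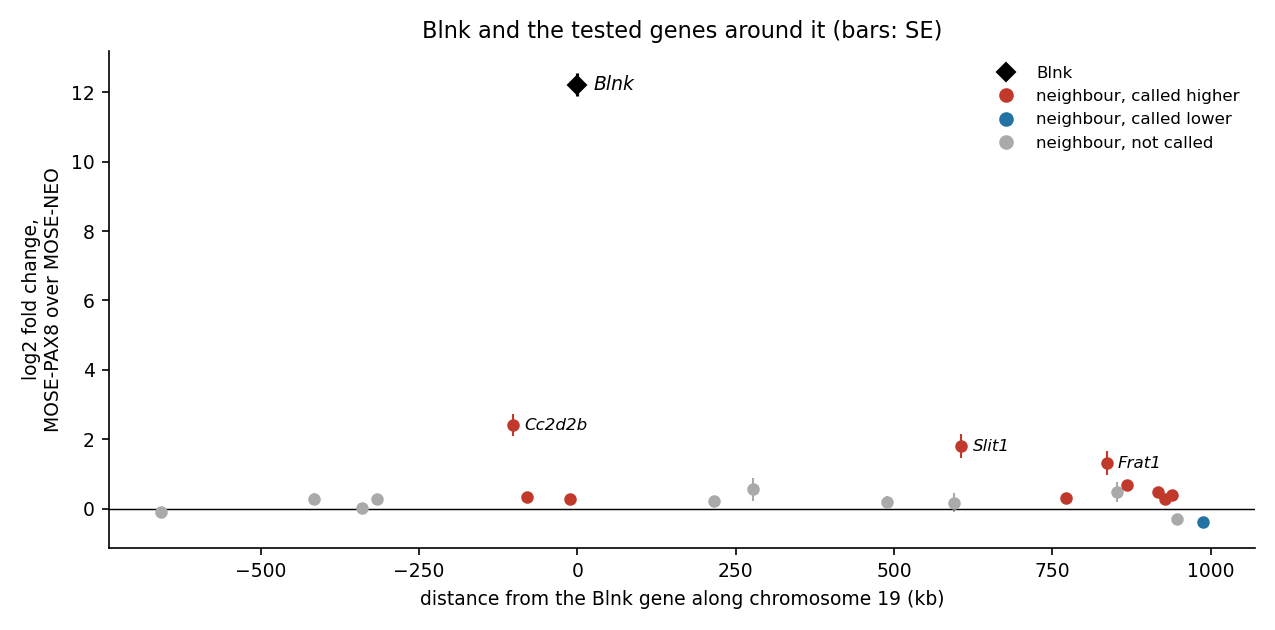
Log2 fold change, MOSE-PAX8 over MOSE-NEO, of Blnk and of the 21 tested genes within 1 Mb, against distance from the Blnk gene in kb (bars are SE; negative distances are toward lower coordinates). Blnk stands at 12.22 and its neighbours between -0.39 and 2.41.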

How the data were processed

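The authors deposited raw read counts per Ensembl gene, 1 file per library and 6 libraries. The submitters' processing notes name cutadapt 1.13, STAR, HTSeq 0.6.1p1, DESeq2 and the build mm10. Annotation, strandedness and the handling of multi-mapped reads were not given in the sources used here, so overlapping genes and genes with close copies are uncertain. Symbols, positions and exon lengths came from GENCODE M21, which matched 24991 of 25006 identifiers. Promoter windows came from RefSeq (GRCm38.p6).

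The lines were compared with edgeR 4.0.16 (quasi-likelihood, TMM factors, filterByExpr) in R 4.3.3 over all genes, with Benjamini-Hochberg adjustment and calls below 0.05. SE was worked back from the estimate and its F statistic. A library with 0 counts was given an upper limit of 3 counts, and ratios with 1 to 3 counts in a line carry an exact (Clopper-Pearson) counting interval. Between libraries of the same line the chi-square per degree of freedom was 12.7 or more, more than sampling noise gives, so none was treated as a second deposit of another; this does not show separate cultures. On simulated counts for 12313 genes of this comparison, 76, 67 and 57 genes were changed 1.5-fold, 2-fold and 4-fold and 12113 were not. The fit recovered 55.3%, 82.1% and 96.5% of the changed genes, and it also called 14 of the unchanged genes. In the data a far larger share, 33.9%, was called, so these recoveries need not hold for the data.

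The members and all lists were chosen with earlier results of these data known. Genes were named by a rule. It took all members and, from each list, up to 3 called genes per direction (otherwise the 2 most abundant). It also took tested genes within 1 Mb of Blnk and the 5 nearest profiles, passing over Gm-number, Rik and -ps symbols. Not every gene the rule selects is described, and genes at or near 0 counts were chosen after their values were seen. Alternatives were DESeq2 1.42.0, limma-voom 3.58.1, RLE and upper-quartile factors, no filter, 1 CPM in 3 libraries as the filter, a replicate block, leaving out every library in turn, and leaving out the lincRNA-rich pair. Removal of the local chromosome median by a refit, and all alternatives for the neighbour counts, were added after seeing the data.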

Additional observations from a re-analysis of the deposited data

How the results depend on the processing

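The Blnk log2 fold change was 11.77 with limma-voom and ran from 11.66 to 12.67 with 1 library left out, where the 2 MOSE-NEO counts set it. The genes called over the table ran from 2859 to 3908 with 1 library left out, those called higher from 1545 to 2065 and those called lower from 1314 (without MOSE-PAX8 replicate 3) to 1843. PAX5 target genes called ran from 1 to 5. Of the neighbours of Blnk, 3 to 8 were called higher and 1 to 2 lower with 1 library left out. With the lincRNA-rich pair left out 4 were called higher. With the local chromosome median removed 4 were called higher and 2 lower. That removal reversed Mapk8 (0.14), Ppp3ca (-0.16) and Ppp3cb (0.15), as its construction implies. The signalling list genes called were 11 to 14 higher and 9 to 13 lower with 1 library left out.

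The labels do not say whether the replicate number pairs the samples. Deviations of same-numbered libraries from their line means correlated at -0.465, 0.0541 and 0.402 across genes. The highest correlation, 0.627, was between MOSE-PAX8 replicate 2 and MOSE-NEO replicate 1, the lincRNA-rich pair. These values cannot show how the samples were paired. With the replicate block 3933 genes were called, Blnk had a log2 fold change of 12.22, and 3 PAX5 target genes were called. The block ended the calls of Lef1 (adjusted p = 0.0518), Pik3r1 (0.0696) and Exosc1 (0.0507). Among values of single genes, 921 kept their side, 79 lost a call, 8 gained one, 3 reversed and 4 values of Ptprc moved by more than the spread between libraries. A call on Syk, Btk or any gene near 0 counts is limited by depth.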
